A study of Homo sapiens with 6 samples.

Results

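The melanocortin 2 receptor and the cAMP cascade behind it carry the signal of corticotropin (ACTH) in the adrenal cortex. ACTH binds MC2R, a receptor that needs the accessory protein MRAP to reach the cell surface, and the receptor raises cAMP through a stimulatory G protein and adenylyl cyclase. cAMP releases the catalytic subunits of protein kinase A (PKA) from its regulatory subunits, phosphodiesterases break cAMP down, and CREB and CREM act on cAMP-response elements (CRE) of target genes such as STAR. The 10 genes described here are MC2R and MRAP, the PKA subunit genes PRKAR1A, PRKAR2B, PRKACA and PRKACB, the phosphodiesterase genes PDE8A, PDE8B and PDE11A, and CREM. They were taken as a list, and all 33 probe sets that the platform annotation gives to them alone were used, of 54613 probe sets in the table. The whole table covers 19775 genes.

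Total RNA came from H295R/TR SF-1 cells, which derive from H295R, a human adrenocortical carcinoma line, and in which doxycycline switches on a transgene for the nuclear receptor SF-1 (NR5A1). H295R cells are known for a weak response to ACTH. There were 3 arrays of cells given doxycycline at 1 µg/mL for 72 h (Dox) and 3 arrays of cells kept in basal medium for 72 h (basal), all grown in medium with NuSerum and ITS+ supplement, and no ACTH treatment is given for either group. Arrays are called Dox 1 to 3 and basal 1 to 3 as they were deposited, since the labels give them no common numbering, and values are log2 signals. The study calls the arrays of a condition biological replicates, and all cells are of 1 derived line.

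The arrays did not fall apart by label. Dox 1 was nearly identical to basal 1, with an SD of their difference over all probe sets of 0.134, and Dox 2 to basal 3, with an SD of 0.149, where the 13 other pairs gave 0.258 to 0.461. The 33 probe sets behaved alike: their largest difference was 0.31 between Dox 1 and basal 1 and 0.49 between Dox 2 and basal 3. In addition, Dox 3 and basal 2 had less spread in their values than the remaining arrays, with interquartile ranges of 3.38 and 3.32, against 3.53 to 3.56. Whether the RNA of each array is that of its label, and whether near-identical arrays come from separate cultures, cannot be told from these values, so 3 arrays of a label may not stand for 3 separate cultures of that treatment. Dox minus basal is therefore a difference between labels throughout. The main results are given for all 6 arrays and for the 4 arrays left without Dox 1 and basal 3. The second comparison sets Dox 2 and Dox 3 against basal 1 and basal 2, with the narrow pair as a block, so it averages Dox 2 minus basal 1 and Dox 3 minus basal 2. It has 1 residual degree of freedom, and the omitted arrays and the block were both picked on these data, so its p-values are not independent evidence. An alternative below keeps Dox 1 and basal 3 in place of basal 1 and Dox 2, near copies under opposite labels. Dox 1 minus basal 3 is close to Dox 2 minus basal 1 with its sign turned. That alternative thus shrinks or turns, by arithmetic, a difference shared by both pairs. NR5A1 itself differed by 0.03 ± 0.24 (SE) over 6 arrays and by 0.43 ± 0.14 over 4, and it did not pass in either (adjusted p = 1.0 and 0.132 with limma). The study reports SF-1 overexpression after doxycycline, with an immunoblot of the protein. Whether the probe set of NR5A1 reads RNA of the transgene was not tested here. Of 9 measured adrenocortical markers, 5 lay above the array median on all 6 arrays, among them STAR, CYP11A1 and SCARB1, and CYP11B1 lay below it on all 6.

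Promoter windows in the RefSeq tables (GRCh38.p14, 250 bases before and 50 after a transcription start) were matched by symbol for 9 members, MRAP not among them, with 33 windows in all. They were searched on both strands for AAGGTCA, the core bound by SF-1, for TGACGTCA, the full CRE, and for TGACG, the short core that the full CRE contains. The SF-1 core stood in 2 of the 33 windows and in 3.92% of all 35116 windows, the full CRE in 4 and in 1.85%, and the short core in 9 and in 24.6%. Both windows with the SF-1 core overlap in CREM, and those with the full CRE are a pair in CREM and a pair in PRKAR1A. The stretches below are shown because they hold the only matches to these longer motifs among the members, with the motif in capitals. All are on the plus strand, 5′ to 3′, at chr10:35195810-35195869, chr17:68512339-68512398 and chr10:35126740-35126799 in that order, and the last holds the SF-1 core in reverse complement.
CREM, CRE: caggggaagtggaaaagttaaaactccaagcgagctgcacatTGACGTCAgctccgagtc
PRKAR1A, CRE: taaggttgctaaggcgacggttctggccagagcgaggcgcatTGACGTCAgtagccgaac
CREM, SF-1 core: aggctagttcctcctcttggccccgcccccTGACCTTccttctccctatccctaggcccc

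The CRE began at base 3 counted from the transcription start in the printed windows of CREM and PRKAR1A, and the SF-1 core at base -76 relative to a start of CREM. The 2 windows of MC2R, the 4 of PDE11A, the 4 of PDE8B, the 3 of PDE8A and the 1 of PRKAR2B held none of these letters. These are matches of letters only, and no binding was measured here.

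The comparison of the labelled groups asks which of these transcripts differ when SF-1 dosage is raised. Over all 6 arrays, none of the 33 probe sets passed an adjusted p of 0.05 with limma (lowest adjusted p = 1.0), as was the case for all 54613 probe sets (0.0%). None had an unadjusted p under 0.05, against 0.683% of all probe sets, and the labelled groups overlapped in all 33, where they did not overlap in 3.81% of all probe sets (Dox higher in 1.74%, lower in 2.07%). The differences ran between -0.22 and 0.33, with a median of -0.05, beside a median of -0.001 over all probe sets. In the 4-array comparison 0 of the 33 were higher and 3 were lower in Dox, with limma. The 3 calls are 9.09% of the members' probe sets and belong to PDE11A and MRAP, where 4.15% of all probe sets were called, 2.07% higher and 2.09% lower. An unadjusted p under 0.05 was reached by 16 of the 33 and by 13.8% of all probe sets. At 2-fold or more with an unadjusted p under 0.05, 1 of the 33 passed, that of PDE11A, beside 0.879% of all probe sets. The median difference of the 33 was -0.08, beside -0.003 over all probe sets. In bulk RNA, fewer cells that express a gene and less RNA per cell cannot be told apart.

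**Figure D1:**
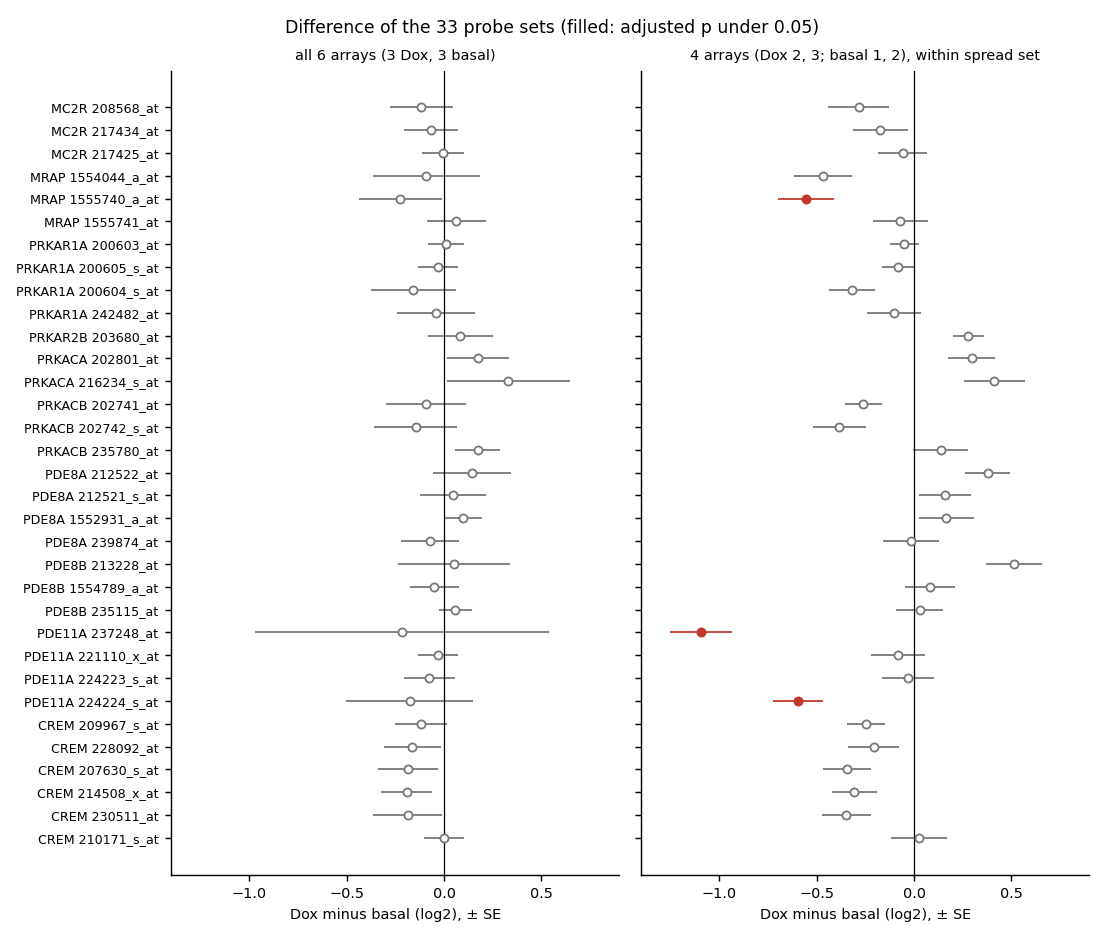
Difference of Dox minus basal on the log2 scale (x axis, ± SE) for each of the 33 probe sets (rows). The left panel is over all 6 arrays. The right panel is over Dox 2 and 3 and basal 1 and 2, with the narrow-spread pair (Dox 3 and basal 2) as a block. Filled points passed an adjusted p of 0.05: none on the left, and on the right 1555740_a_at of MRAP and 237248_at and 224224_s_at of PDE11A, all below 0.

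MC2R, the ACTH receptor, gave a low signal throughout. Its brightest probe set, 208568_at, stood at 5.54, 5.17 and 5.57 in Dox 1, 2 and 3, and at 5.72, 5.60 and 5.33 in basal 1, 2 and 3. Of the 6 values, 5 lay below the median of their own array, which was 5.56 to 5.60. The groups overlapped, with a difference of -0.12 ± 0.16 over 6 arrays (SE, exact permutation p = 0.5, n = 3 each) and of -0.29 ± 0.16 over 4 (adjusted p = 0.483 with limma). The other probe sets of MC2R, 217434_at and 217425_at, lay below the median on all 6 arrays, at 3.88 to 4.40 and 2.98 to 3.29. The signal of MC2R was thus not shown to be above background, and its values cannot tell whether the transcript changed.

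MRAP, the accessory protein of MC2R, had 3 probe sets that differed in level and in behaviour. The brightest, 1554044_a_at, was above the array median on all 6 arrays. It stood at 6.88, 6.39 and 6.14 in Dox 1, 2 and 3, and at 7.07, 6.40 and 6.23 in basal 1, 2 and 3. Dox 1 and basal 1 were thus both high, and the 4 others lay between 6.14 and 6.40. This probe set differed by -0.09 ± 0.28 over 6 arrays (exact permutation p = 0.6, n = 3 each) and by -0.47 ± 0.15 over 4, where it did not pass (adjusted p = 0.1145 with limma).

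The probe set 1555740_a_at of MRAP was one of the 3 called. It stood at 5.84, 5.47 and 5.44 in Dox 1, 2 and 3, and at 5.88, 6.13 and 5.40 in basal 1, 2 and 3. The low values were those of Dox 2, Dox 3 and basal 3, all below their array medians, and the Dox and basal values overlapped over 6 arrays. Over 6 arrays the difference was -0.22 ± 0.21 (exact permutation p = 0.5, n = 3 each). Over the 4 arrays it fell by 0.55 ± 0.15, or 1.47-fold, with Dox 2 minus basal 1 at -0.42 and Dox 3 minus basal 2 at -0.69 (adjusted p = 0.0469 with limma). With basal 1 and Dox 2 left out in place of basal 3 and Dox 1, its difference was -0.13 (adjusted p = 1.0). The call was lost without the block (adjusted p = 1.0), as were those of all 54613 probe sets. With any 1 of the 4 arrays left out, which leaves no block and a lone array in a group, the difference lay between -0.68 (without basal 1) and -0.43 (without basal 2). These fits give the size of the difference only and do not show that the call holds. The remaining probe set, 1555741_at, lay below the median on all 6 arrays, between 4.78 and 5.32, and differed by -0.07 ± 0.14 over 4.

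**Figure D2:**
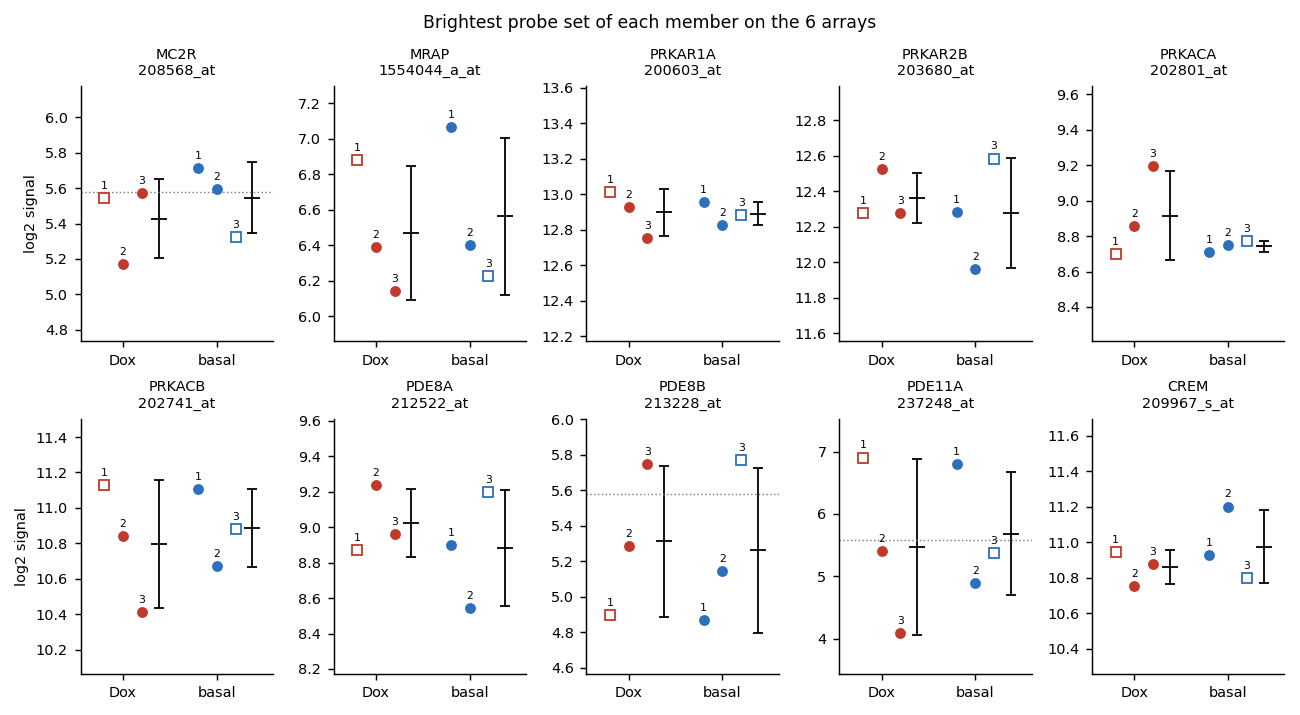
Log2 signal (y axis, a scale of its own in each panel) of the brightest probe set of each of the 10 genes, by labelled group (x axis), with the array number at each point. Bars show the mean ± SD of the 3 arrays of a group, open squares mark Dox 1 and basal 3, and the dotted line is the median of all values. The groups overlap in every panel, with the widest scatter in PDE11A, from 4.09 in Dox 3 to 6.90 in Dox 1.

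The regulatory subunits of PKA hold the kinase inactive until cAMP binds. PRKAR1A, the type I subunit whose loss causes Carney complex, was far above the median and nearly flat in its bright probe sets. In 200603_at it stood at 13.01, 12.93 and 12.75 in Dox 1, 2 and 3, and at 12.96, 12.83 and 12.89 in basal 1, 2 and 3, a difference of 0.01 ± 0.09 over 6 arrays (exact permutation p = 1, n = 3 each) and of -0.05 ± 0.07 over 4. 200605_s_at gave -0.03 ± 0.10 over 6 arrays and -0.08 ± 0.08 over 4. The dimmer 200604_s_at ranged more widely, from 8.78 in Dox 3 to 9.57 in basal 1, and differed by -0.32 ± 0.12 over 4 (adjusted p = 0.207 with limma). For 242482_at the values of Dox 3 and basal 2 were the highest, at 6.16 and 6.23, against 5.62 to 5.87 on the 4 other arrays, so its order followed the narrow-spread pair and not the labels.

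PRKAR2B, a type II regulatory subunit, has 1 probe set, 203680_at. It stood at 12.28, 12.52 and 12.28 in Dox 1, 2 and 3, and at 12.28, 11.96 and 12.59 in basal 1, 2 and 3. The highest value was in basal 3 and the lowest in basal 2, both labelled basal, and the difference over 6 arrays was 0.08 ± 0.17 (exact permutation p = 0.9, n = 3 each). Over 4 arrays it was 0.28 ± 0.08, with 0.24 and 0.32 in the 2 pairs, and did not pass (adjusted p = 0.0763 with limma). It did pass over 4 arrays with 1 probe set per gene (adjusted p = 0.0408), after quantile normalization (0.0483) and with dim probe sets left out (0.0179). It did not pass without the variance trend (0.372) or without the block (1.0). Leaving out 1 of the 4 arrays gave 0.12 without basal 2, 0.155 without Dox 2, 0.40 without Dox 3 and 0.44 without basal 1, and leaving out basal 1 and Dox 2 in place of basal 3 and Dox 1 gave 0.004.

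The catalytic subunits gave differences of both signs, and none passed. PRKACA, which encodes the Cα subunit and is mutated in cortisol-producing adenomas, stood at 8.70, 8.86 and 9.19 in Dox 1, 2 and 3 in 202801_at, and at 8.71, 8.75 and 8.77 in basal 1, 2 and 3. The basal arrays lay close together (8.74 ± 0.03, SD, n = 3), and Dox 3 alone stood well above them. The difference was 0.17 ± 0.16 over 6 arrays (exact permutation p = 0.4, n = 3 each) and 0.30 ± 0.12 over 4 (adjusted p = 0.279 with limma). Its other probe set, 216234_s_at, was lowest in basal 2 (4.63) and Dox 3 (5.29) and between 5.60 and 5.92 on the 4 other arrays, and differed by 0.41 ± 0.16 over 4 (adjusted p = 0.217).

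PRKACB, which encodes the Cβ subunit, stood at 11.13, 10.84 and 10.41 in Dox 1, 2 and 3 in 202741_at, and at 11.11, 10.67 and 10.88 in basal 1, 2 and 3. Dox 3 and basal 2 were the lowest, and the difference was -0.09 ± 0.21 over 6 arrays (exact permutation p = 0.7, n = 3 each) and -0.26 ± 0.10 over 4 (adjusted p = 0.195 with limma). 202742_s_at differed by -0.38 ± 0.14 over 4 arrays (adjusted p = 0.173). 235780_at lay below the median on all 6 arrays and differed by 0.14 ± 0.14 over 4, the opposite sign to the brighter sets of the gene.

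PDE11A, a phosphodiesterase that hydrolyses both cAMP and cGMP and in which inactivating variants are linked to adrenocortical hyperplasia, varied most of the 10 genes. Its brightest probe set, 237248_at, stood at 6.90, 5.41 and 4.09 in Dox 1, 2 and 3, and at 6.79, 4.89 and 5.37 in basal 1, 2 and 3. Dox 1 and basal 1 were the only values above the array median, Dox 2 and basal 3 were close together in the middle, and basal 2 and Dox 3 were the lowest. Over 6 arrays the groups overlapped widely, at 5.47 ± 1.41 in Dox and 5.68 ± 0.99 in basal (SD, n = 3 each), with a difference of -0.22 ± 0.75 (SE) and an exact permutation p of 1, where 0.1 is the smallest that 3 against 3 arrays allow. Over the 4 arrays it fell by 1.09 ± 0.16, or 2.13-fold, with -1.39 for Dox 2 minus basal 1 and -0.80 for Dox 3 minus basal 2 (adjusted p = 0.000794 with limma). That call depends on the block: the Dox 2 value (5.41) lay above that of basal 2 (4.89), and without the block the adjusted p was 1.0. Without the block none of all 54613 probe sets was called. Of the 4 arrays only basal 1 has a title in words, so label style (words or codes) as the block amounts to leaving basal 1 out. With that block the difference was -0.14, as without basal 1. With basal 1 and Dox 2 left out in place of basal 3 and Dox 1, it turned to 0.37 (adjusted p = 1.0). Leaving out 1 of the 4 arrays, which leaves no block, gave -0.14 without basal 1, -0.44 without Dox 3, -1.75 without Dox 2 and -2.04 without basal 2, none of which passed.

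The probe set 224224_s_at of PDE11A was also highest in basal 1 and Dox 1 and lowest in Dox 3, at signals below the median on all 6 arrays. It stood at 4.16, 3.59 and 2.99 in Dox 1, 2 and 3, and at 4.26, 3.51 and 3.50 in basal 1, 2 and 3. Here too the Dox 2 value lay above that of basal 2. It differed by -0.18 ± 0.33 over 6 arrays and fell by 0.60 ± 0.13 over 4, or 1.51-fold (adjusted p = 0.0162 with limma). With basal 1 and Dox 2 left out in place of basal 3 and Dox 1, the difference was 0.07 (adjusted p = 1.0). Leaving out 1 of the 4 arrays gave -0.22 without basal 1, -0.295 without Dox 3, -0.895 without Dox 2 and -0.97 without basal 2, none of which passed. The other probe sets of PDE11A, 221110_x_at and 224223_s_at, lay below the median on all 6 arrays, between 3.84 and 4.68, and differed by -0.08 ± 0.14 and -0.03 ± 0.13 over 4. At such signals a change of the transcript could not be read from them.

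The difference of PDE11A between the narrow-spread pair and the 4 other arrays, -1.63 in 237248_at, was larger than either labelled difference. Of the markers of other cell types, COL3A1 and CHGB were likewise highest in Dox 1 and basal 1 and lowest in Dox 3. COL3A1, a collagen of stromal cells, stood at 8.74, 7.08 and 5.47 in Dox 1, 2 and 3, and at 8.75, 5.98 and 7.09 in basal 1, 2 and 3. CHGB, a granin of neuroendocrine cells, stood at 9.11, 8.10 and 6.98 in Dox 1, 2 and 3, and at 9.11, 7.46 and 8.14 in basal 1, 2 and 3. The other stromal markers did not follow: COL1A1, COL1A2, LUM and DCN were on average higher in the narrow-spread pair, by 0.10 to 0.45, with DCN, a proteoglycan, highest in Dox 3 (6.45), and PDGFRB differed by -0.08. The whole stroma list had a mean signal of 5.64 to 5.89 in Dox and 5.62 to 5.94 in basal, with 2 of 6 markers above the median on all 6 arrays, and LUM and COL1A2 below it on all 6. The medulla list had a mean of 5.73 to 6.19 in Dox and 5.95 to 6.16 in basal, with 3 of 5 above the median and the defining enzymes TH and DBH below it on all 6. The medulla markers other than CHGB did not follow its pattern. Between the narrow-spread pair and the 4 other arrays they differed by 0.032 in TH, 0.123 in DBH, -0.135 in PNMT and -0.005 in CHGA. All arrays are of cells of 1 derived line, with no separate stroma or medulla sampled. The part of differences among cells of that line or of array quality in the values of PDE11A was not tested.

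**Figure D3:**
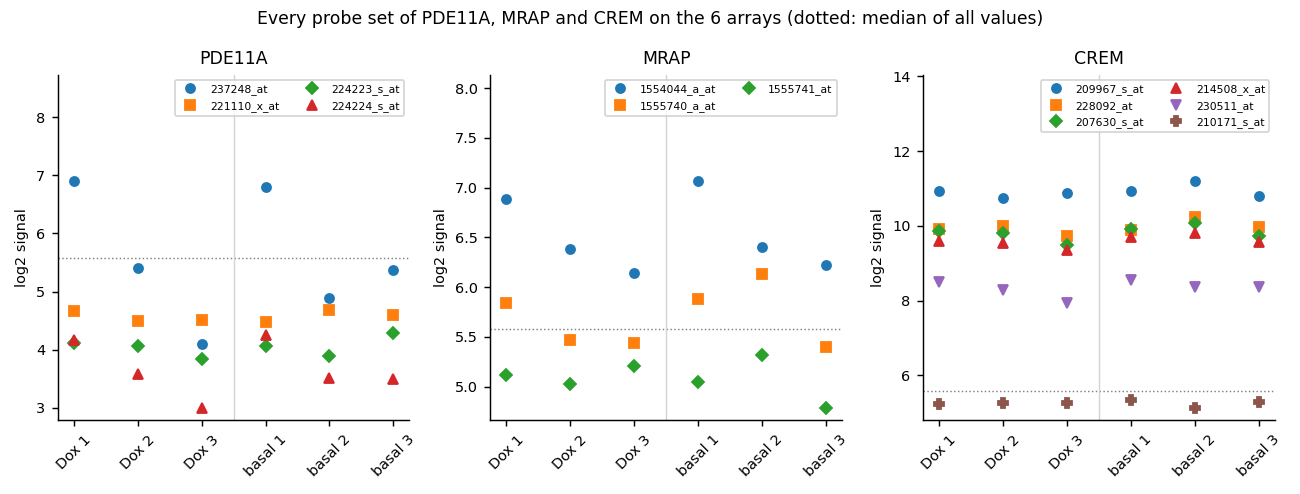
Log2 signal (y axis) of every probe set of PDE11A, MRAP and CREM on each of the 6 arrays (x axis, Dox arrays left of the basal arrays). The dotted line is the median of all values. In PDE11A the blue circles of 237248_at range from 4.09 to 6.90 and the red triangles of 224224_s_at from 2.99 to 4.26, while the other sets range over 0.20 and 0.45.

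The genes whose pattern was most like that of 237248_at over the 6 arrays were sought among the 55 other genes whose brightest probe set ranged over at least as much (2.81). They were EMB, ODAM, PI15, ADGRG2 and GNG2, with Pearson correlations of 0.9975, 0.9973, 0.9973, 0.9964 and 0.996, given as a description over 6 points that share the same arrays. Their own 4-array differences lay between -1.46 in ADGRG2 and -1.15 in ODAM. GNG2, a gamma subunit of G proteins, stood at 10.28, 8.59 and 7.15 in Dox 1, 2 and 3, and at 10.24, 8.31 and 8.57 in basal 1, 2 and 3.

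PDE8A and PDE8B encode high-affinity phosphodiesterases specific for cAMP that act on the basal cAMP of steroidogenic cells. PDE8A stood at 8.87, 9.24 and 8.96 in Dox 1, 2 and 3 in 212522_at, and at 8.90, 8.55 and 9.20 in basal 1, 2 and 3. It was lowest in basal 2 and about equal in Dox 2 and basal 3, with a difference of 0.14 ± 0.20 over 6 arrays (exact permutation p = 0.5, n = 3 each) and of 0.38 ± 0.12 over 4 (adjusted p = 0.102 with limma). 212521_s_at gave 0.16 ± 0.13 over 4 arrays. The sets 1552931_a_at and 239874_at lay below the median on all 6 arrays.

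PDE8B stood at 4.90, 5.29 and 5.75 in Dox 1, 2 and 3 in 213228_at, and at 4.87, 5.15 and 5.77 in basal 1, 2 and 3. Dox 3 and basal 3 were the only values above the array median, and the difference over 6 arrays was 0.05 ± 0.29 (exact permutation p = 0.8, n = 3 each). Over 4 arrays it was 0.51 ± 0.14, with 0.42 and 0.61 in the 2 pairs, and did not pass (adjusted p = 0.0644 with limma). It did pass when 1 probe set per gene was fitted (adjusted p = 0.0368), and not without the block (1.0). Leaving out 1 of the 4 arrays gave 0.28 (without Dox 3) to 0.745 (without Dox 2), and with basal 1 and Dox 2 left out in place of basal 3 and Dox 1 the difference was -0.13. The other sets of PDE8B, 1554789_a_at and 235115_at, lay between 2.75 and 3.49, below the median on all 6 arrays.

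CREM encodes activators and repressors that bind the CRE, and the repressor ICER is read from a promoter inside the gene. Of its 6 probe sets, 5 were above the median on all 6 arrays, all 5 with a negative difference, and none passed. The brightest, 209967_s_at, stood at 10.94, 10.76 and 10.88 in Dox 1, 2 and 3, and at 10.93, 11.20 and 10.80 in basal 1, 2 and 3. Basal 2 alone stood above the rest, and the difference was -0.12 ± 0.14 over 6 arrays (exact permutation p = 0.5, n = 3 each) and -0.25 ± 0.10 over 4 (adjusted p = 0.228 with limma). 214508_x_at had the lowest exact permutation p among the 33 probe sets, 0.2 (n = 3 each), with 9.50 ± 0.12 in Dox and 9.69 ± 0.12 in basal (SD), and -0.31 ± 0.11 over 4 arrays (adjusted p = 0.205). The 5 bright sets differed by -0.35 to -0.21 over 4 arrays, sets of 1 gene being no replicates of each other. The dim set 210171_s_at lay between 5.12 and 5.34 and differed by 0.03 ± 0.14.

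The cascade around the members was read from 8 lists of other receptor, G protein, cyclase, PKA, phosphodiesterase and CREB genes and of cAMP-responsive genes. Of 89 genes, 82 were measured with a probe set of their own symbol, each by its brightest. No gene was called over 6 arrays, as none of all 19775 genes was. Over 4 arrays 2 were higher and 8 lower in Dox with limma, or 12.2% of the 82, beside 6.43% of all genes (3.16% higher and 3.27% lower). The median difference of the 82 was -0.013, beside -0.006 for all genes. All 10 calls were lost without the block, where the differences are the same by construction, as were those of all 54613 probe sets. With basal 1 and Dox 2 left out in place of basal 3 and Dox 1, none of the 10 passed (adjusted p = 1.0), their differences lay between -0.24 and 0.19, and 7 of the 10 turned sign. That loss and the turns of sign largely follow by arithmetic from the near-identical arrays and are no separate test of these genes. The directions below rest on which array of each near-identical pair was kept.

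The phosphodiesterase list held 4 of the 10 calls, with 1 of 11 genes higher, 3 lower and a median of -0.29. PDE4B, a cAMP-specific enzyme, stood at 7.71, 6.30 and 6.00 in Dox 1, 2 and 3, and at 7.93, 7.26 and 6.26 in basal 1, 2 and 3, and over 4 arrays it fell by 1.45 ± 0.14 (adjusted p = 2.28e-05 with limma). Over 6 arrays it differed by -0.48 ± 0.55, and with the other array of each near-identical pair by 0.09. Its low values were in Dox 2, Dox 3 and basal 3. PDE7B, also specific for cAMP, changed by -0.79 ± 0.12 and PDE4D by -0.63 ± 0.12 over 4 arrays. PDE2A, which is stimulated by cGMP, stood at 10.88, 11.34 and 11.52 in Dox 1, 2 and 3, and at 10.88, 11.02 and 11.25 in basal 1, 2 and 3, and rose by 0.48 ± 0.09 over 4 (adjusted p = 0.00606), against 0.20 ± 0.19 over 6. Among probe sets of these genes, the 4-array differences ranged from -1.45 to -0.01 in PDE4B, from -0.63 to 0.03 in PDE4D and from -0.79 to -0.44 in PDE7B.

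Of 13 cAMP-responsive genes, 1 was higher, 3 were lower and 9 did not pass, with a median of -0.05. SIK1, a kinase that restrains CREB coactivators, stood at 7.13, 8.96 and 8.28 in Dox 1, 2 and 3, and at 7.18, 6.998 and 8.89 in basal 1, 2 and 3. Its high values were in Dox 2, Dox 3 and basal 3, and over 4 arrays it rose by 1.53 ± 0.14 (adjusted p = 1.366e-05 with limma), although its other probe set gave -0.06. Over 6 arrays it differed by 0.43 ± 0.62, and with the other array of each near-identical pair by -0.24. SGK1, a serum- and glucocorticoid-induced kinase, changed by -0.97 ± 0.11, the orphan receptor NR4A2 by -0.73 ± 0.15 and STAR, the carrier of cholesterol into mitochondria, by -0.54 ± 0.09. NR4A2 lay below the array median on 4 of the 6 arrays, and its difference was -0.27 without basal 1, -0.44 without Dox 3 and -1.18 without basal 2. Of the 3 probe sets of NR4A2, 1 was called, and their 4-array differences ranged from -0.73 to -0.39. Over 6 arrays SGK1 differed by -0.36 ± 0.37, NR4A2 by -0.17 ± 0.39 and STAR by -0.17 ± 0.24. SIK1 and PDE4B stand in the study's own list of genes regulated on these arrays, so counts that hold them are not independent evidence of direction.

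**Figure D4:**
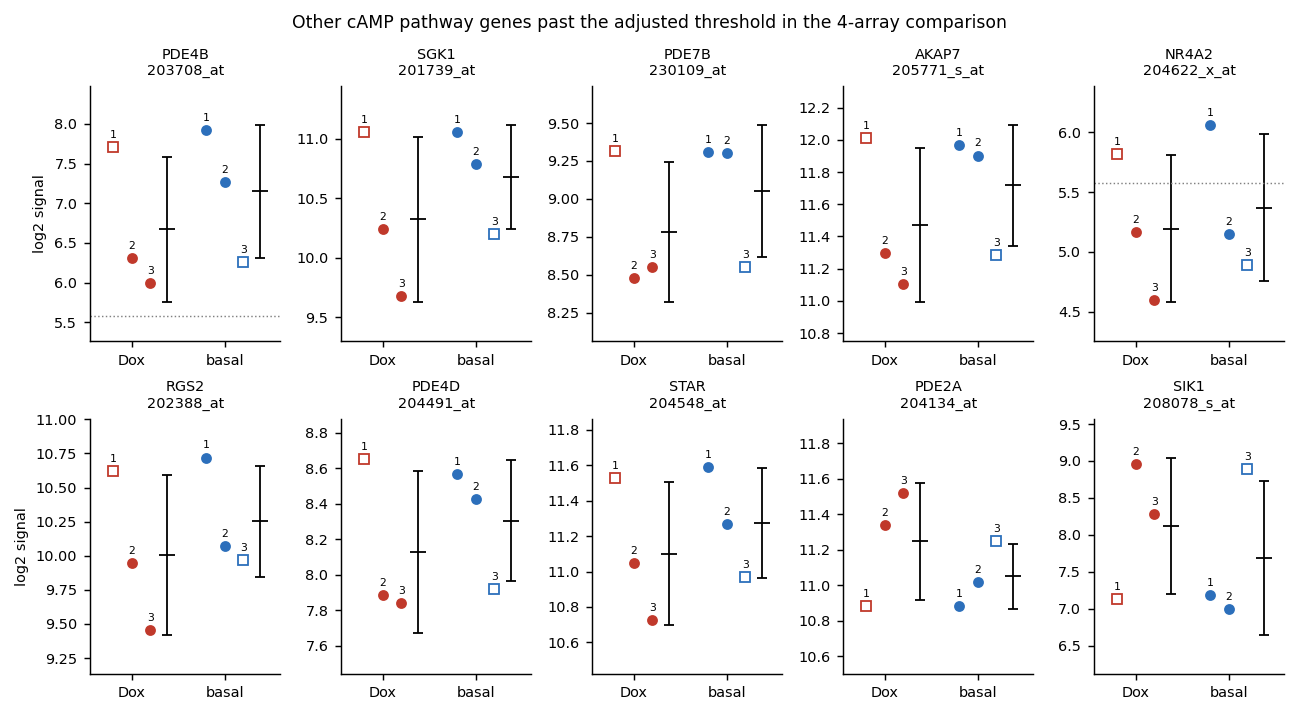
Log2 signal (y axis, a scale of its own in each panel) by labelled group (x axis) of the 10 other pathway genes that passed in the 4-array comparison, with the array number at each point. Bars show the mean ± SD of the 3 arrays of a group, open squares mark Dox 1 and basal 3, which that comparison left out, and the dotted line is the median of all values. Dox 1 and basal 1 differ by at most 0.24 in any panel, and Dox 2 and basal 3 by at most 0.27, both in NR4A2.

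The other calls were single genes of their lists. RGS2, a regulator that shortens G protein signalling, changed by -0.70 ± 0.11 and was the only one of 9 G protein genes called, with GNAL at -0.53 ± 0.14 (adjusted p = 0.0565 with limma). The difference of RGS2 was -0.37 without basal 1 and -0.45 without Dox 3. AKAP7, which anchors PKA, stood at 12.01, 11.30 and 11.11 in Dox 1, 2 and 3, and at 11.97, 11.90 and 11.29 in basal 1, 2 and 3, and fell by 0.73 ± 0.09 over 4 arrays (adjusted p = 0.000137), 1 of 17 PKA genes called. Of the 3 probe sets of AKAP7, 1 was called, and their 4-array differences ranged from -0.73 to -0.19. None of 10 adenylyl cyclases passed, with ADCY9 at 0.43 ± 0.14 and ADCY6 at 0.32 ± 0.12 (adjusted p = 0.134 and 0.185). None of 11 genes of related receptors, arrestins and receptor kinases passed, with differences from -0.28 to 0.15, and neither did any of 4 other cAMP effectors or 7 CREB family genes and coactivators, of which CRTC2 was at 0.33 ± 0.13 (adjusted p = 0.208).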

How the data were processed

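Expression was measured on Affymetrix HG-U133 Plus 2.0 arrays. The deposited values are on the log2 scale, 1 per probe set and array, and per the submitters' processing notes the authors made them with GCRMA, a method that models background from probe sequence and gives a single value for each probe set. No version is given in the sources used here, nor do those sources say whether all arrays went through GCRMA together. Values were used as deposited, since array medians lay between 5.56 and 5.60. No detection calls and no control probe sets were used, so a planned check of RNA quality from control probe sets was not made. A signal below the array median is called not shown to be above background.

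All 54613 probe sets were fitted with limma 3.58.1 under R 4.3.3 (lmFit, eBayes with a mean-variance trend). Benjamini-Hochberg adjustment ran over all probe sets with a threshold of 0.05, two-sided. SE is limma's moderated error. Single values were also compared with exact permutation tests. Of the probe sets, 41091 had 1 symbol, 1801 had several and 11721 had none. No probe set with several symbols listed a member. For a pathway gene the brightest probe set by mean over the 6 arrays was taken. The fit was tested on simulated data, drawn as independent values with no near-identical arrays and no narrow-spread pair. That test says nothing on the effect of those arrays here. Figures were drawn with matplotlib 3.10.9.

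The members, lists, arrays left out and block were chosen with earlier results of these data known. Named genes are the 10 members, NR5A1, up to 3 genes a pathway list with the smallest adjusted p over 4 arrays, and the 5 genes most like the member of largest range. COL3A1, CHGB, PDE4D and NR4A2 were named after their values were seen. Alternatives were leaving out each array, quantile normalization, a filter on dim probe sets, no variance trend, 1 probe set per gene, other blocks, the study's thresholds and, for the 4-array results chosen after seeing the data, the other array of each near-identical pair.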

Additional observations from a re-analysis of the deposited data

How the results depend on the processing

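No paired analysis was possible because the labels give no replicate numbers that the groups share, and the block of the 4-array comparison comes from the spread of values. Over 6 arrays, 0 member probe sets were called under every alternative except the comparison without basal 3 and Dox 1, which called 3; leaving out basal 1 and Dox 2 instead called 0. Of 423 differences of member probe sets under these alternatives, 419 moved by less than 1 SD between replicates. That count is no measure of stability. The blocks, the fit without a variance trend, the filter and 1 probe set per gene cannot change a 6-array difference. The SD within a label is also wide where near-identical arrays carry different labels. PDE11A 237248_at is among the 419, although its difference went from -0.22 to -1.09 without basal 3 and Dox 1. In the 4-array comparison the 3 calls became 0 without the block. At the thresholds of the study (2-fold or more with an unadjusted p under 0.05) 1 was left. None of all 54613 probe sets was called without the block, so the loss without it is not particular to the members. Label style as the block amounts there to leaving basal 1 out, as no other of the 4 arrays has a title in words. It is therefore no separate check. Leaving out 1 array leaves a lone array in a group, which is assumed to vary like the others. The 10 pathway calls became 0 without the block and 2 at the thresholds of the study. Quantile normalization, the filter on dim probe sets, the fit without a variance trend and 1 probe set per gene gave 3 or 4 member calls and 9 to 13 pathway calls, but the filter removed the PDE11A probe sets, and its 3 calls were both brighter MRAP sets and PRKAR2B. In that order these settings tested 33, 17, 33 and 10 member probe sets and called 4, 3, 3 and 3 of them. They tested 82, 60, 82 and 82 pathway genes. Of all probe sets fitted they called 2440, 2763, 1764 and 1383. Quantile normalization and the fit without a variance trend covered all 54613 probe sets, and 1 probe set per gene covered 19775. Taking the other array of each near-identical pair (basal 3 and Dox 1 kept, basal 1 and Dox 2 left out), an alternative chosen after seeing the data for the 4-array results, left 0 member and 0 pathway calls, and 0 over all 54613 probe sets. It turned the sign of 13 differences that passed under some setting: MRAP 1554044_a_at to 0.20, PDE8B 213228_at to -0.13, PDE11A 237248_at to 0.37 and 224224_s_at to 0.07, GNAL to 0.20, RGS2 to 0.016, PDE3A to 0.24, PDE4B to 0.088, PDE4D to 0.073, PDE7B to 0.007, NR4A2 to 0.185, SIK1 to -0.24 and STAR to 0.01. These turns and the lost calls largely follow by arithmetic, since near copies then stand under opposite labels. With limma, an unadjusted p under 0.05 was reached by 1 member and 9 pathway genes without the block, and by 0 and 1 with the other arrays. Of all 54613 probe sets, 1580 and 518 reached it under these settings in that order. The number of arrays and dim signals, with 12 of 33 probe sets below the median on all 6 arrays, limit what could be seen.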
